A study of Mus musculus with 6 samples.

Results

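The insulin-like growth factor (IGF) axis was followed through 10 mouse genes: the ligands Igf1 and Igf2, the receptors Igf1r and Igf2r, and the binding proteins Igfbp2 to Igfbp7. They were taken by name from the deposited tables, through the Ensembl gene ID of each row, and all 10 were found among the 18437 mRNAs listed in at least 1 library. IGF1 and IGF2 are small secreted growth factors that signal through the receptor tyrosine kinase IGF1R, whereas IGF2R, also the cation-independent mannose 6-phosphate receptor, removes IGF2 and carries enzymes to lysosomes. Secreted binding proteins hold most IGF outside cells and release it when proteases cut them, and IGFBP7 binds IGF more weakly than the other members of the family. In young mice growth hormone drives IGF1 production in liver and in other tissues, and Igf2, an imprinted gene, is known for its high expression before birth.

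The data were Ribo-seq libraries, in which mRNA fragments protected by translating ribosomes are sequenced. The labels give lung, heart, brain, kidney, colon and small intestine as the tissues, all from WT C57BL/6J mice at 4 weeks of age with no treatment, and there was 1 library per tissue. The animals behind each library are not given in the sources used here. Macrophage samples were not analysed here. The deposited value is the RPKM, in which the reads of an mRNA on its coding sequence (CDS) are divided by CDS length and by the library's total over CDSs, and it is called ribosome density below. RPKM is scaled by length and so can be compared between mRNAs of a library, but it does not separate the amount of an mRNA from its translation. It also does not measure the secreted protein. In whole tissue, fewer cells of a type and less RNA per cell cannot be told apart.

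RPKM multiplied by CDS length gave a whole number of reads for 100% of values in every library (tolerance 0.0001 reads), with 4504853 to 10635031 reads on CDSs per library. Each density is therefore given with an exact Poisson 95% interval of its reads, and each ratio with an exact conditional binomial 95% interval. An mRNA without reads is given with the density that 3 reads would have. These intervals cover counting error only, since the reads carry no molecular identifiers here, and with 1 library per tissue no difference below has a replicate check or a p-value.

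The labels were checked with 36 markers in 6 lists of 6 mRNAs, and 4 of the 6 labels went against them. The heart list summed to 75020 RPKM in the library labelled heart and the lung list to 86953 RPKM in that labelled lung, each the highest of the 6 libraries. Small intestine markers were highest in the library labelled brain (59034 RPKM, against 608 RPKM under their own label), and brain markers were highest in the library labelled small intestine (4523 RPKM, against 40.0 RPKM). Kidney markers were highest in the library labelled colon (20879 RPKM, against 18.9 RPKM), and colon markers in the library labelled kidney (7789 RPKM, against 8.80 RPKM). For each list, all 6 markers were highest in the same library. Kri1, a ribosome biogenesis factor, took from 0.400% of the reads in labelled lung to 22.1% in labelled kidney, which lowers every other density in a library without changing their order. Libraries keep their labels in the text ("labelled brain" is the library with that label), and results are also given for lung and heart alone.

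**Figure D1:**
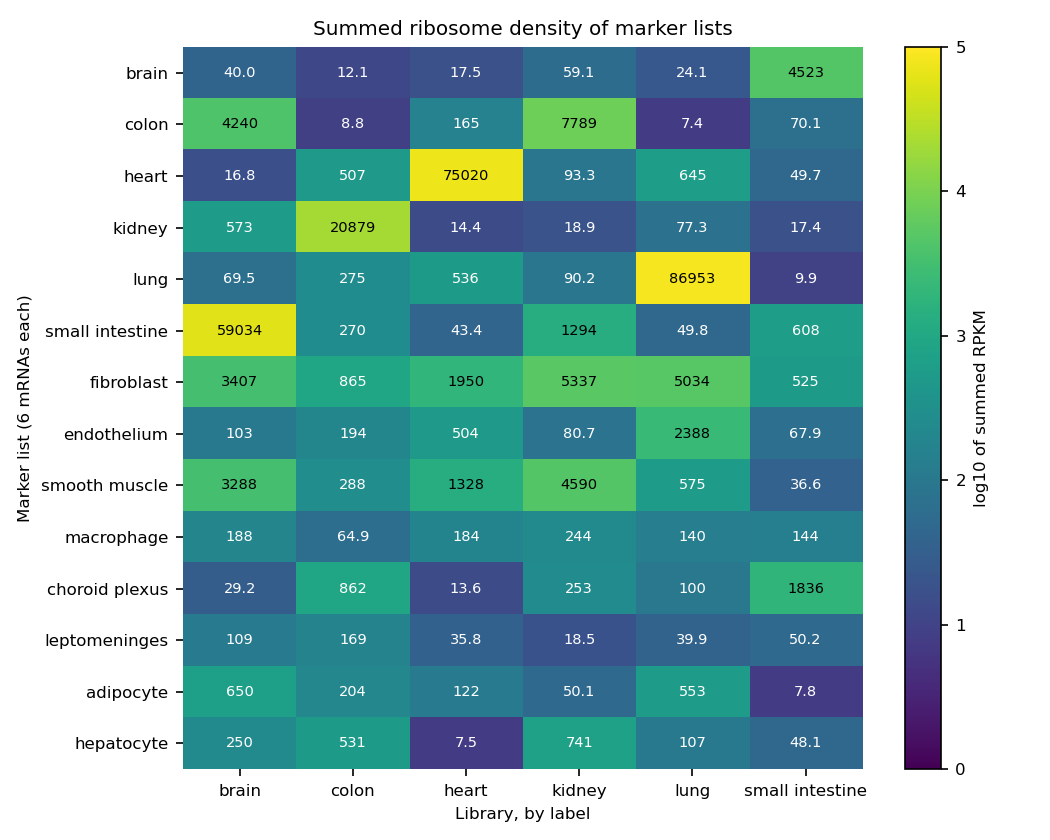
Summed ribosome density of 14 lists of tissue and cell type markers (rows, 6 mRNAs each) in the 6 libraries by label (columns). Numbers are summed RPKM and colour is their log10. The heart and lung lists were highest under their own labels, at 75020 and 86953 RPKM, whereas brain markers reached 4523 RPKM under the small intestine label and kidney markers 20879 RPKM under the colon label.

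The binding proteins share a fold built on many cysteines, and this can be seen in their coding sequences. For each, the 30 bases of coding sequence with the most cysteine codons are shown 5′ to 3′ on the coding strand of GRCm39, with cysteine codons (TGC or TGT) in capitals:
Igfbp2: gagcccggcTGCggcTGCTGCtccgtgTGC
Igfbp3: gagcccggcTGCggcTGCTGCctgactTGC
Igfbp4: gagccaggcTGCggtTGTTGCgccactTGC
Igfbp5: gagcccggcTGTggcTGCTGCatgactTGC
Igfbp6: gggtccgccttagcggggTGCcccggcTGC
Igfbp7: cgcgacgcgTGCgggTGCTGCccggtgTGT

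All 6 windows lie in coding exon 1, and all but that of Igfbp6 show the closely spaced cysteines for which the amino-terminal domain of the family is known. They stand at chr1:72863931-72863960 on the plus strand for Igfbp2, at chr11:7163566-7163595 on the minus strand for Igfbp3 and at chr11:98932470-98932499 on the plus strand for Igfbp4. The others stand at chr1:72913125-72913154 on the minus strand for Igfbp5, at chr15:102053052-102053081 on the plus strand for Igfbp6 and at chr5:77555673-77555702 on the minus strand for Igfbp7. Igfbp3 and Igfbp5 had 28 of the 30 bases in common. Igfbp7 shared 14 to 19 bases with the others and Igfbp6 15 to 18. Windows were compared position by position without alignment, and where several tied the first was taken. For Igfbp6, whose window lacks the closely spaced cysteines, the shared bases are therefore not a measure of similarity between matching parts. Igfbp6 had 2 cysteine codons in its window where each of the others had 4. Over the whole CDS, cysteine made up 6.09% to 7.87% of codons in the 6 binding proteins, against a median of 2.04% over 18153 CDSs. In the annotation used here, 0 bases of any member's CDS were shared with another protein-coding gene on the same strand.

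Igfbp7 had the highest density of the binding proteins in 4 of the 6 libraries, those labelled brain, colon, kidney and lung, and Igfbp3 was second in each of these. Igfbp5 led in labelled heart and labelled small intestine. Igfbp7 made up 46.2% of the summed binding protein density in labelled brain, 57.6% in labelled colon, 34.8% in labelled kidney and 38.8% in labelled lung. Igfbp5 made up 46.6% of the sum in labelled heart and 62.4% in labelled small intestine, the library with brain markers. In that library the second place went to Igfbp2 with 14.1%, whereas in labelled heart it went to Igfbp7 with 25.8%.

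The lead over the second binding protein was clear of counting error in every library, and its size varied. Igfbp7 exceeded Igfbp3 by 1.23-fold (95% interval 1.15 to 1.32) in labelled brain and by 1.59-fold (1.52 to 1.66) in labelled lung. The same ratio was 1.71 (1.58 to 1.85) in labelled kidney and 2.84 (2.70 to 2.98) in labelled colon. Igfbp5 exceeded Igfbp7 by 1.80-fold (1.70 to 1.92) in labelled heart, and it exceeded Igfbp2 by 4.42-fold (4.03 to 4.85) in labelled small intestine. These shares are taken within a library, so neither the scaling between libraries nor the reads on Kri1 enter them.

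The leader depends on whether Igfbp7 is counted with the family. Without Igfbp7, Igfbp3 led in labelled brain (69.7% of the sum of the other 5), colon (47.9%), kidney (31.2%) and lung (39.9%), and Igfbp5 led in labelled heart (62.8%) and small intestine (65.1%). The library labelled kidney, with colon markers, had the most even composition, and its first and second binding proteins together made up 55.1% of the sum. In labelled brain, with small intestine markers, Igfbp7 and Igfbp3 together made up 83.7%.

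**Figure D2:**
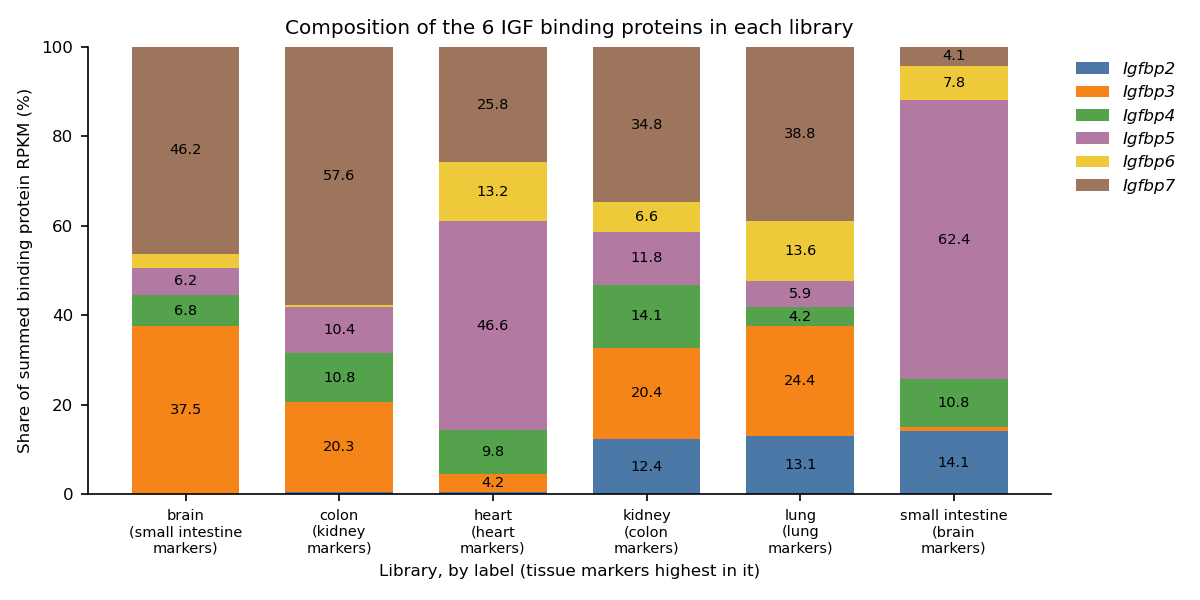
Share of the summed RPKM of the 6 binding proteins (y axis, percent) taken by each of them in the 6 libraries, named by label with the tissue markers that were highest there in brackets. Igfbp7 takes the largest share in 4 libraries, up to 57.6% in labelled colon, and Igfbp5 takes 46.6% in labelled heart and 62.4% in labelled small intestine.

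The summed density of the 6 binding proteins was 408 RPKM in labelled brain, 2644 RPKM in labelled colon, 858 RPKM in labelled heart, 699 RPKM in labelled kidney, 2070 RPKM in labelled lung and 581 RPKM in labelled small intestine. Labelled colon, with kidney markers, and labelled lung thus stood above the rest, and the sum in labelled colon was 6.48 times that in labelled brain. As a share of all reads on CDSs, the binding proteins took between 0.0362% (labelled brain) and 0.236% (labelled colon). Set against the ligand, the sum was 25.9 times the density of Igf1 in labelled heart, the lowest ratio, and 110 times in labelled small intestine, the highest. The Igf1 density in labelled small intestine rests on 20 reads (3.23 to 8.16 RPKM).

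Igfbp7 (chr5:77493130-77555931, minus strand), a secreted protein found around vessels, had 188 RPKM in labelled brain, 1524 RPKM in labelled colon, 221 RPKM in labelled heart, 243 RPKM in labelled kidney, 803 RPKM in labelled lung and 24.04 RPKM in labelled small intestine. It was the 75th highest of 12325 mRNAs with reads in labelled colon and the 139th highest of 11594 in labelled lung. All 5 neighbouring pairs in its order were clear of counting error, and the ends differed 63.4-fold (54.5 to 74.2). Leaving out labelled colon, lung still exceeded the next library by 3.31-fold (3.13 to 3.49).

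Igfbp3 (chr11:7156086-7164179, minus strand), the main carrier of IGF1 in blood, had 153 RPKM in labelled brain, 537 RPKM in labelled colon, 35.9 RPKM in labelled heart, 142 RPKM in labelled kidney, 506 RPKM in labelled lung and 4.78 RPKM, from 32 reads, in labelled small intestine. Labelled colon and labelled lung were within 1.06-fold (1.00 to 1.12) of each other, and labelled brain and kidney were not separated (1.08-fold, 0.990 to 1.17). Under median-of-ratios scaling labelled colon was 1.32-fold above lung. Labelled kidney then stood above labelled brain (163 against 147), as it did with Kri1 left out of the total (183 against 156). From labelled colon to labelled small intestine the density differed 112-fold (79.3 to 165).

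Igfbp5, a binding protein that attaches to extracellular matrix, had 25.4 RPKM in labelled brain, 274 RPKM in labelled colon, 399 RPKM in labelled heart, 82.6 RPKM in labelled kidney, 122 RPKM in labelled lung and 362 RPKM in labelled small intestine. Heart exceeded labelled small intestine by 1.10-fold (1.04 to 1.17), an order that turned when Kri1 was left out of the total, where labelled small intestine was 1.05-fold higher. All 5 neighbouring pairs in its order were separated beyond counting error at the deposited values. Lung and labelled kidney changed places under median-of-ratios scaling (89.8 against 94.8). Labelled brain, with 220 reads, was 15.7-fold (13.7 to 18.1) under heart. Over the 6 libraries the Igfbp5 to Igfbp3 ratio ran from 0.166 (0.144 to 0.192) in labelled brain to 75.8 (53.6 to 111) in labelled small intestine, and it was above 1 in labelled heart and small intestine alone.

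Igfbp2, a binding protein abundant in fetal tissues and in cerebrospinal fluid, had the widest range of all members. Its density was 0.411 RPKM (4 reads, 0.112 to 1.05) in labelled brain, 11.2 RPKM in labelled colon, 3.74 RPKM (28 reads) in labelled heart, 86.6 RPKM in labelled kidney, 271 RPKM in labelled lung and 82.1 RPKM in labelled small intestine. Lung exceeded labelled kidney, the next, by 3.13-fold (2.86 to 3.44), and by 2.01-fold under median-of-ratios scaling and 2.05-fold with the 20 mRNAs of most reads left out of the total, whereas labelled kidney and labelled small intestine were not separated (1.06-fold, 0.940 to 1.19). The ends differed 660-fold (257 to 2426), with the lower end resting on 4 reads.

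Igfbp2 and Igfbp5 are neighbours on chromosome 1 of GRCm39, at chr1:72863606-72891634 on the plus strand and chr1:72897091-72914043 on the minus strand, with 5456 bases between them. Their densities did not run together. Igfbp5 exceeded Igfbp2 by 106.8-fold (73.7 to 161) in labelled heart, by 61.9-fold (23.8 to 229) in labelled brain, by 24.5-fold (18.3 to 33.7) in labelled colon and by 4.42-fold (4.03 to 4.85) in labelled small intestine. In labelled kidney the ratio was 0.953 (0.845 to 1.07), and in labelled lung Igfbp2 was 2.23-fold higher (2.05 to 2.43).

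Igfbp4 (chr11:98932064-98945218, plus strand), which inhibits IGF1 until the protease PAPP-A cuts it, had 27.9 RPKM in labelled brain, 285 RPKM in labelled colon, 84.2 RPKM in labelled heart, 98.5 RPKM in labelled kidney, 87.3 RPKM in labelled lung and 62.5 RPKM in labelled small intestine. Labelled colon stood 2.89-fold (2.60 to 3.21) above labelled kidney. Labelled kidney was not separated from lung (1.13-fold, 1.00 to 1.27) nor lung from heart (1.04-fold, 0.916 to 1.17), whereas labelled kidney was 1.17-fold (1.04 to 1.32) above heart. Under median-of-ratios scaling labelled kidney stood 1.76-fold above lung.

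Igfbp6 (chr15:102052697-102057953, plus strand), the member that prefers IGF2, had 12.8 RPKM in labelled brain, 13.7 RPKM in labelled colon, 113 RPKM in labelled heart, 46.0 RPKM in labelled kidney, 281 RPKM in labelled lung and 45.3 RPKM in labelled small intestine. Lung exceeded heart by 2.48-fold (2.26 to 2.72), and heart exceeded labelled kidney by 2.46-fold (2.12 to 2.86). Labelled brain and colon, the libraries with small intestine and kidney markers, were lowest and not separated, and labelled brain was 22.0-fold (17.9 to 27.3) under lung. Labelled colon, with 44 reads of Igfbp6, was the library where Igfbp3, Igfbp4 and Igfbp7 were highest.

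**Figure D3:**
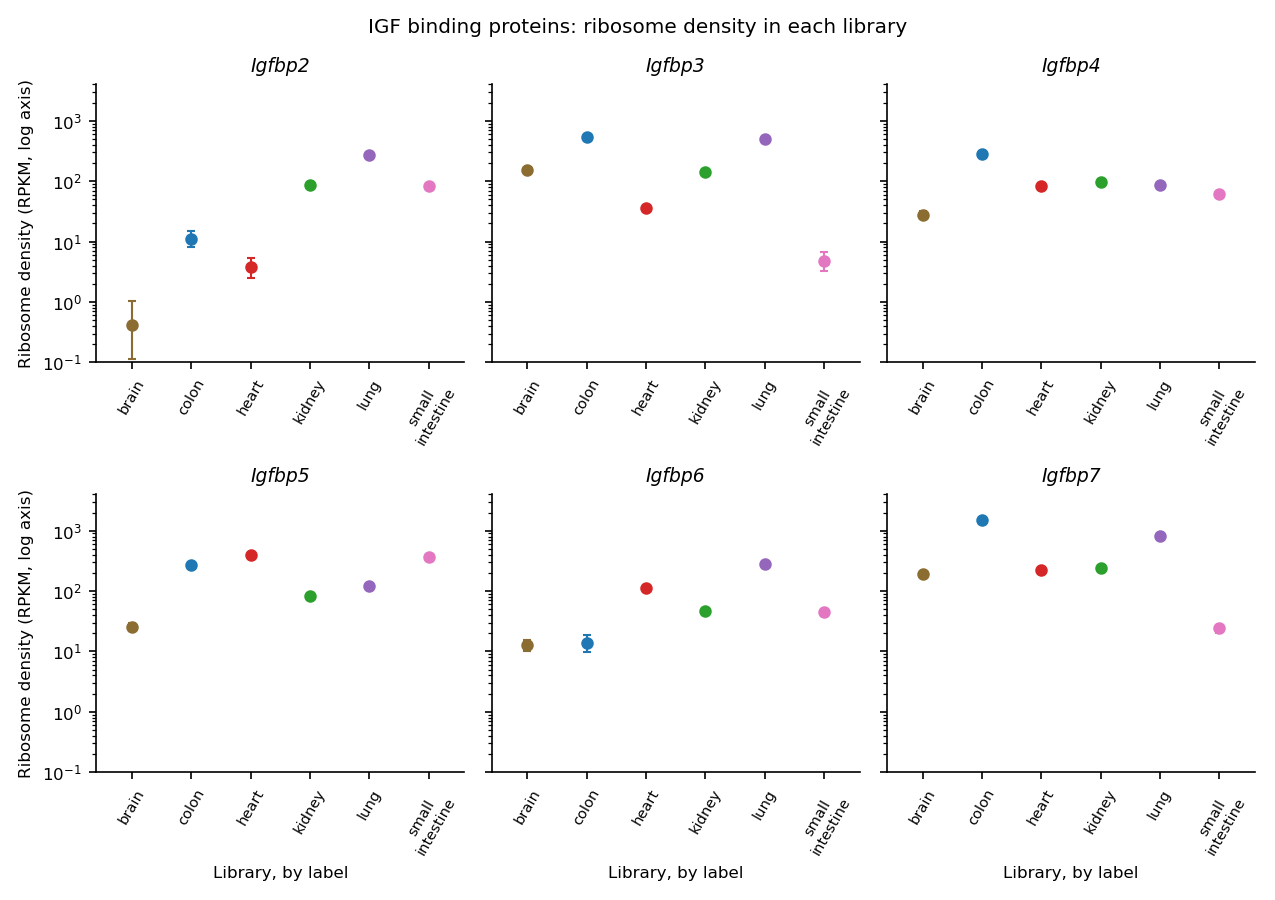
Ribosome density of each binding protein in the 6 libraries by label (RPKM, log axis), with exact Poisson 95% intervals of the reads as bars, which are smaller than the points where none is seen. Igfbp2 spans from 0.411 RPKM in labelled brain to 271 RPKM in labelled lung, and Igfbp7 from 24.04 RPKM in labelled small intestine to 1524 RPKM in labelled colon.

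Igf1 (chr10:87693642-87772904, plus strand) had reads in every library, with its density between percentile 46.6 and 82.9 of the mRNAs with reads. It had 10.1 RPKM (53 reads) in labelled brain, 39.0 RPKM (87 reads) in labelled colon, 33.1 RPKM (134 reads) in labelled heart, 17.0 RPKM (64 reads) in labelled kidney, 34.8 RPKM (133 reads) in labelled lung and 5.29 RPKM (20 reads) in labelled small intestine. Labelled colon was not separated from lung (1.12-fold, 0.847 to 1.48) nor lung from heart (1.05-fold, 0.820 to 1.35), whereas heart was 1.94-fold (1.43 to 2.66) above labelled kidney. With median-of-ratios scaling heart came first, 1.06-fold above labelled colon. Labelled small intestine, the library with brain markers, was lowest in either case, 7.38-fold (4.50 to 12.7) under labelled colon.

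Igf2 (chr7:142204503-142220694, minus strand) had reads in 1 library alone, labelled heart, with 5 reads or 1.07 RPKM (0.346 to 2.49). The other 5 libraries held no reads of it, with 3 of them listing it at 0 and those labelled brain and kidney not listing it. Between 0.492 RPKM (labelled brain) and 1.16 RPKM (labelled colon) would correspond to 3 reads there, all within the interval of heart. In labelled heart Igf1 exceeded Igf2 by 31.02-fold (13.0 to 97.1). Choroid plexus and the leptomeninges are known to keep Igf2 expression after birth. The choroid plexus list ran from 13.6 RPKM in heart to 1836 RPKM in labelled small intestine, where Ttr alone gave 1819 RPKM and the other 5 markers 16.0 RPKM, against 208 RPKM for those 5 in labelled colon. The leptomeningeal list ran from 18.5 RPKM in labelled kidney to 169 RPKM in labelled colon, with 50.2 RPKM in labelled small intestine and Foxc2 at 0 in all 3. In labelled colon, the library with kidney markers, Slc22a6 gave 70.2 RPKM and Slc47a1 48.9 RPKM of the leptomeningeal sum. Kl gave 96.1 RPKM and Folr1 90.8 RPKM of the choroid plexus sum there, with Kcnj13 and Otx2 at 0. In labelled small intestine 3 reads of Igf2 would have given 0.685 RPKM. The part of these cells in the values of Igf2 was not tested.

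Igf1r (chr7:67601518-67883416, plus strand), the receptor that transmits the signal of both ligands, had 6.46 RPKM in labelled brain, 27.4 RPKM in labelled colon, 6.78 RPKM in labelled heart, 8.54 RPKM in labelled kidney, 14.1 RPKM in labelled lung and 7.26 RPKM in labelled small intestine. Labelled colon stood 1.94-fold (1.71 to 2.21) above lung, and lung 1.65-fold (1.42 to 1.93) above labelled kidney. The other 3 neighbouring pairs in this order were not separated. Under median-of-ratios scaling labelled colon stood 2.41-fold above lung, whereas lung (10.4) and labelled kidney (9.81) came close to each other.

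Igf2r (chr17:12901293-12988614, minus strand), the receptor that clears IGF2, had 70.9 RPKM in labelled brain, 71.3 RPKM in labelled colon, 128 RPKM in labelled heart, 132 RPKM in labelled kidney, 65.2 RPKM in labelled lung and 45.2 RPKM in labelled small intestine. Its range, 2.93-fold (2.80 to 3.06), was the narrowest of the 9 members with reads in all libraries at the deposited values. Labelled kidney and heart differed by 1.04-fold (1.00 to 1.07), and labelled colon and brain were not separated. With Kri1 left out of the total labelled kidney was 1.32-fold above heart. Under median-of-ratios scaling lung (48.0) was lowest, below labelled small intestine (53.0).

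In all 6 libraries Igf2r had the higher density of the 2 receptors. The excess was smallest in labelled colon (2.60-fold, 2.36 to 2.87) and lung (4.62-fold, 4.19 to 5.10) and largest in labelled heart (18.8-fold, 16.5 to 21.6). The insulin receptor Insr, the closest relative of Igf1r, was added after its values were seen. It exceeded Igf1r by 10.02-fold (8.74 to 11.5) in labelled heart and by 4.66-fold (4.07 to 5.33) in labelled kidney. Igf1r was the higher of this pair in labelled colon (1.27-fold, 1.11 to 1.45) and in lung (1.25-fold, 1.09 to 1.45).

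**Figure D4:**
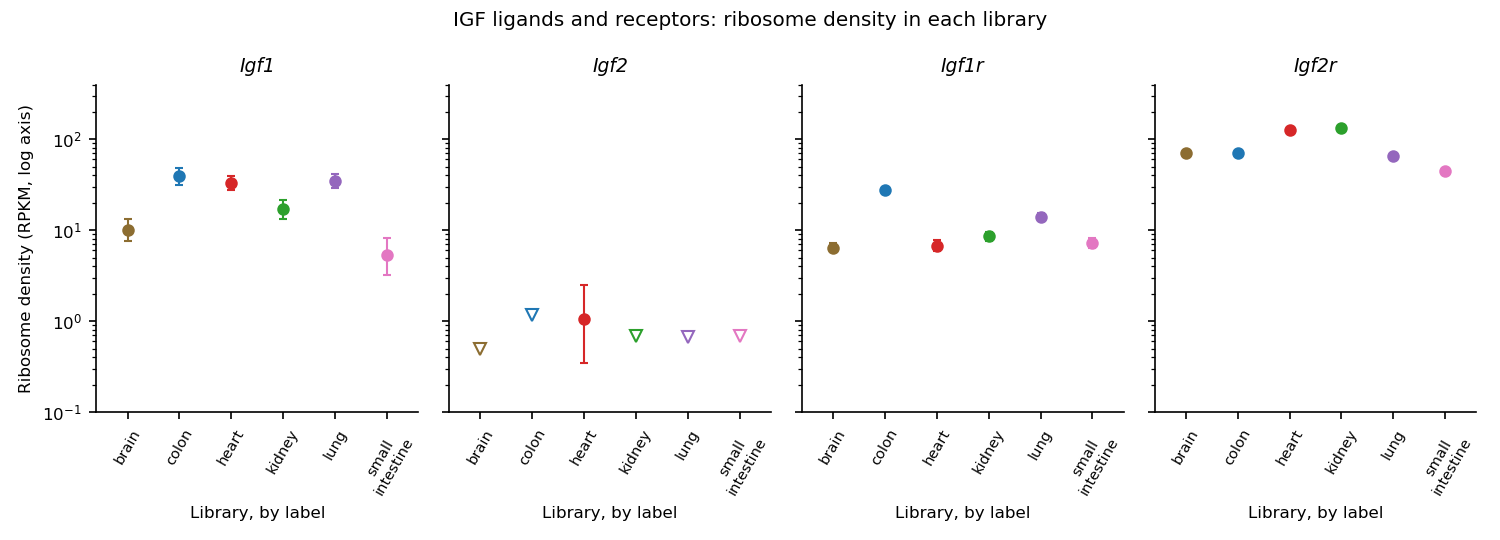
Ribosome density of the ligands and receptors in the 6 libraries by label (RPKM, log axis), with exact Poisson 95% intervals as bars. Open triangles mark the density that 3 reads would give in the libraries without reads of Igf2, which had 5 reads in labelled heart, and Igf2r lies above Igf1r in every library.

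Of the 9 members tested (at least 20 reads over all libraries, which leaves out Igf2), 3 had a highest library at least 2-fold above the second: Igfbp2 and Igfbp6 in labelled lung and Igfbp4 in labelled colon. By the same rule 44.3% of the 14754 mRNAs tested were called, so 3 of 9 is no more than the background. By direction, 11.1% of all mRNAs were called for labelled lung and 5.58% for labelled colon, against 2 and 1 members. The shares were 5.71% for labelled brain, 5.21% for labelled heart, 2.65% for labelled kidney and 14.1% for labelled small intestine, where 0 members were called. The median ratio of highest to second library was 1.90 for the members and 1.78 for all mRNAs. Across the members, 33 of 45 neighbouring pairs of libraries were separated beyond counting error and 12 were not. The same count was not made over all mRNAs and depends on the number of reads, so it is not a result about the axis. Labelled colon was the highest library for 5 of the 9 members (Igf1, Igf1r, Igfbp3, Igfbp4 and Igfbp7, with Igf1 going to heart under median-of-ratios scaling), as it was for 15.4% of all mRNAs tested. Labelled lung was highest for 2, beside 25.6% of all mRNAs tested. Labelled heart and labelled kidney were highest for 1 each, beside 12.7% and 8.20%. Labelled brain and labelled small intestine were highest for 0 members, beside 15.5% and 22.7%.

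The call depends on the scaling and on the libraries compared. With Kri1 left out of the total, Igf1r and Igfbp7 (both highest in labelled colon) joined the 3, while 43.2% of all mRNAs were called. Igfbp6 lost its call under median-of-ratios scaling (1.60-fold) and with the 20 mRNAs of most reads left out of the total (1.98-fold). In each of these settings 4 members were called, Igf1r, Igfbp2, Igfbp4 and Igfbp7, beside 42.3% and 41.8% of all mRNAs. With labelled lung left out, 5 members were called, of which Igfbp4 in labelled colon was as in the full set, beside 43.6% of all mRNAs. With labelled colon left out 4 were called, namely Igfbp2, Igfbp3, Igfbp6 and Igfbp7, all in lung, beside 47.8% of all mRNAs.

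Lung against heart, the libraries whose markers matched their labels, gives the members without the labels in doubt. Of the 9 members, 5 were at least 2-fold higher in lung and 1 in heart, while 44.1% and 24.9% of 11757 mRNAs were called in these directions (69.0% in all). The median log2 ratio of lung to heart was 1.06 over the members and 0.69 over all mRNAs tested.

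Igfbp2 showed the largest difference, with 271 RPKM in lung and 3.74 RPKM in heart, or 72.6-fold (50.1 to 110). Igfbp3 was 14.1-fold (12.4 to 16.1) higher in lung, and Igfbp7 was 3.63-fold (3.44 to 3.83) higher. Igfbp6 was 2.48-fold (2.26 to 2.72) and Igf1r 2.08-fold (1.77 to 2.45) higher in lung. Igfbp5 alone was called for heart, at 3.28-fold (3.03 to 3.56). The binding proteins thus moved in opposite directions between these organs, Igfbp5 being the first in heart and the fifth in lung.

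The members not called were Igf1, Igfbp4 and Igf2r. Igf1 differed by 1.05-fold (0.820 to 1.35) and Igfbp4 by 1.04-fold (0.916 to 1.17), and both came out higher in heart under median-of-ratios scaling, at log2 ratios of lung to heart of -0.56 and -0.58. Igf2r was 1.96-fold (1.89 to 2.04) higher in heart. The summed density of the binding proteins was 2.41 times higher in lung. Of the 8114 calls made with the deposited values 63.9% were higher in lung, and of the 7508 calls made with median-of-ratios scaling 49.4% were. That scaling shifts every log2 density by -0.44 in lung and by 0.20 in heart. Under that scaling Igf1r and Igfbp6 were no longer called for lung, with log2 ratios of 0.42 and 0.67, and Igf2r was called for heart, with -1.61. The signs of Igfbp2, Igfbp3, Igfbp5 and Igfbp7 held under every scaling tried.

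**Figure D5:**
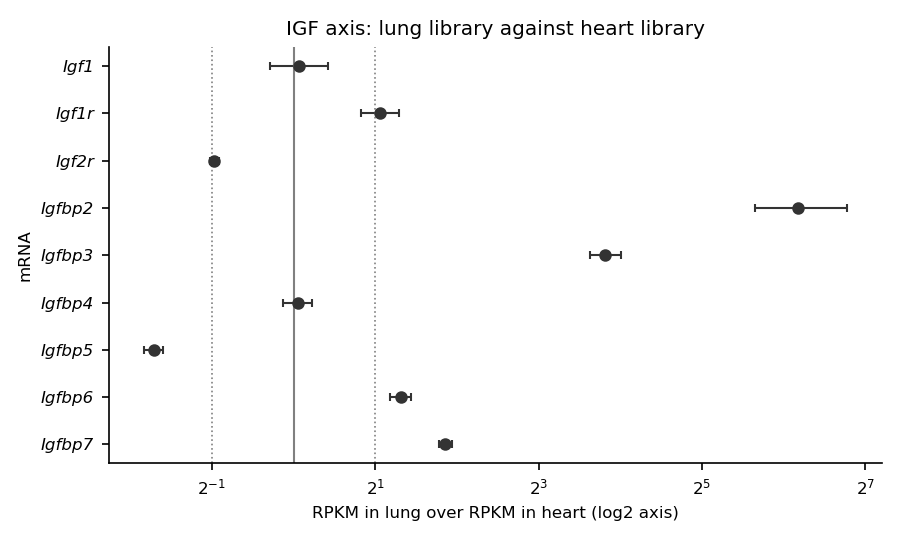
RPKM in labelled lung over RPKM in labelled heart for the 9 members tested (log2 axis), with exact conditional binomial 95% intervals as bars. The solid line marks equal density and the dotted lines a 2-fold difference, which Igfbp2 (72.6-fold) and Igfbp3 (14.1-fold) exceeded most, with Igfbp5 on the heart side, and with median-of-ratios scaling Igf1 and Igfbp4 also fall on the heart side.

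The cell types that are known to make binding proteins differed between libraries as well. The endothelial list, all 6 of whose markers had reads in every library, ran from 67.9 RPKM in labelled small intestine to 2388 RPKM in labelled lung, with 504 RPKM in heart. Fibroblast markers, also with reads for 6 of 6 in every library, ran from 525 RPKM in labelled small intestine to 5337 RPKM in labelled kidney, with 5034 RPKM in lung and 1950 RPKM in heart. Smooth muscle markers ran from 36.6 RPKM in labelled small intestine to 4590 RPKM in labelled kidney. Labelled small intestine, lowest in these 3 sums, was also lowest for Igfbp3 and Igfbp7. Not every marker was lowest there. Pdgfra had 123 RPKM there against 68.4 RPKM in labelled colon, and Cldn5 42.4 RPKM against 0.144 RPKM in labelled brain. Col3a1 alone gave 54.3% of the fibroblast sum in lung. Col1a1, Col1a2, Col3a1 and Pdgfra were higher in lung than in heart. Dcn (69.2 against 120 RPKM) and Lum (0.128 against 61.7 RPKM) were higher in heart. Labelled colon, highest for Igfbp3, Igfbp4 and Igfbp7, had 194 RPKM of endothelial and 865 RPKM of fibroblast markers. The macrophage list, of cells that can make Igf1, ran from 64.9 RPKM in labelled colon, where Cd68 was at 0, to 244 RPKM in labelled kidney, while Igf1 was highest in labelled colon (in heart under median-of-ratios scaling). The part of these cell types in the densities of the members was not tested.

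Patterns across the 6 libraries were compared by the Pearson correlation of log2(RPKM + 1), over 10312 mRNAs with at least 100 reads and a highest density of at least 10 RPKM. With 6 points that share depth and scaling in each library, these values are descriptions. For Igf1 the most similar mRNA was Ghr, the growth hormone receptor (r = 0.985), followed by Cobll1 (0.982) and Bcs1l (0.980), and 12 mRNAs exceeded 0.95. Ghr itself had 3.13 RPKM in labelled brain, 33.9 RPKM in labelled colon, 14.5 RPKM in labelled heart, 6.49 RPKM in labelled kidney, 23.2 RPKM in labelled lung and 0.872 RPKM in labelled small intestine. At the deposited values its highest and lowest libraries were thus those of Igf1. For Igf1, however, labelled colon was not separated from lung, and under median-of-ratios scaling heart came first.

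For the binding proteins, the nearest patterns were Sbsn, Tctn2 and Tk2 for Igfbp2 (r = 0.972 to 0.962), and Rem1, Hdac8 and Pkn2 for Igfbp3 (0.990 to 0.983). Abcc4, Anks3 and Gstz1 were nearest to Igfbp4 (0.993 to 0.975), and Ndufaf5, Pnkd and Snapc3 to Igfbp5 (0.997 to 0.986). Eps15l1, Amotl1 and Rnf144a were nearest to Igfbp6 (0.996 to 0.989), and Kdm1b, Card10 and Tmem176b to Igfbp7 (0.991 to 0.987). Igf2, at 5 reads, was below the minimum. Within the axis, Igfbp3 and Igfbp7 had the most similar patterns (r = 0.940), Igf1 and Igfbp7 came next (0.888), and Igfbp3 and Igfbp5 had the most negative value (-0.42).

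The wider pathway was described with 40 further mRNAs, of which 39 were in the files and 37 had enough reads. Of these 37, 13 (35.1%) had a highest library at least 2-fold above the second, against 44.3% of all mRNAs. These calls were made with the deposited values only. Median-of-ratios scaling shifts every log2 density by -0.44 in lung, -0.13 in labelled colon, and 0.20 in heart and labelled kidney. It therefore lowers each ratio of lung over these libraries. The circulating complex, receptors and adaptors gave 4 of 10, the proteases and their inhibitors 1 of 4, the RNA-binding proteins of Igf2 mRNA 1 of 3, the relatives with an IGFBP domain 4 of 8 and the signalling kinases and their partners 3 of 12.

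Igfbp1, a binding protein that liver secretes during fasting, lies 3539 bases from Igfbp3 on chromosome 11. It had 23.1 RPKM (85 reads) in labelled colon, 7.14 RPKM (62 reads) in labelled brain, 1 read in labelled kidney and none in the other 3 libraries. The ratio of labelled colon to labelled brain was 3.24 (2.31 to 4.57). Kidney markers in labelled brain came to 2.75% of their sum in labelled colon, and Igfbp1 to 30.9%. Hepatocyte markers summed to 250 RPKM in labelled brain, where Cps1 gave 196 RPKM, Alb 28.8 RPKM, and Fga and Serpina1c were at 0. They summed to 531 RPKM in labelled colon, of which Alb gave 375 RPKM, to 741 RPKM in labelled kidney, of which Alb gave 633 RPKM, and to between 7.48 and 106.6 RPKM in the others. Their part in the values of Igfbp1 was not tested.

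Also highest in labelled colon were Igfals, the acid-labile subunit that stabilises IGF1 complexes in blood (2.09 RPKM, 17 reads), the insulin receptor-related receptor Insrr (2.16 RPKM, 38 reads) and Pappa, the protease that cuts Igfbp4 (2.28 RPKM, 50 reads). These are low densities, and that of Igfals was 2.21-fold (1.02 to 4.83) over heart. Esm1, a proteoglycan of endothelial cells with an IGFBP domain, had 32.2 RPKM in labelled colon, 12.2 RPKM in lung and at most 3.58 RPKM in the other libraries.

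Among the signalling mRNAs, Akt2, a kinase known for insulin-driven glucose uptake, had 235 RPKM in labelled heart, 5.05-fold (4.48 to 5.70) above labelled colon. Irs1, an adaptor of insulin and IGF receptors, was highest in labelled heart at 7.28 RPKM, 2.97-fold (2.26 to 3.94) above lung. Pik3ca, a catalytic subunit of PI3 kinase, was highest in lung at 19.1 RPKM. At the deposited values this was 2.13-fold (1.81 to 2.52) above labelled kidney, a ratio that median-of-ratios scaling lowers.

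Lung was also the highest library for Ccn2 (59.5 RPKM), a matricellular protein, and for Kazald1 (6.89 RPKM) and Igf2bp1 (3.21 RPKM), which binds Igf2 mRNA. Ccn5, another matricellular protein of the same family, had 17.9 RPKM from 104 reads in lung and none in the other 5 libraries, where 3 reads would give at most 0.884 RPKM. Ccn3 had the highest density of the whole list, with 303 RPKM in labelled kidney and 162 RPKM in labelled small intestine against 1 read in lung. Htra1, a secreted protease that can cut binding proteins, had 156 RPKM in labelled small intestine, 1.99-fold (1.83 to 2.16) above heart, which had 78.6 RPKM, and at most 27.4 RPKM in the other 4.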

How the data were processed

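Ribo-seq tables of 6 mouse tissues were used, with 1 library per tissue as labelled. The authors deposited 1 RPKM value per mRNA. The submitters' processing notes name Cutadapt, STAR and GRCm39. The Methods, written for the macrophage libraries and taken to hold here, describe the removal of reads shorter than 15 nt, alignment to 1 transcript per gene, that of longest CDS (Ensembl release 107), the exclusion of multi-mapped reads and of reads with more than 2 mismatches, and the counting of reads aligned to the CDS. Footprints of sequence shared between genes are therefore not counted, and other isoforms of a member are not seen.

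Reads were recovered from RPKM and CDS length, with 4504853 to 10635031 reads on CDSs per library. Calls used mRNAs with at least 20 reads over all libraries, or over lung and heart together where only these were compared. The size of a call was 2-fold. Single ratios with their intervals were given at any number of reads. No count model was fitted, since no group has replicates. The 10 members, the lists and the rules were chosen with earlier results of these data known. Genes named were all members, the called and the 3 densest mRNAs of the wider pathway (1 called mRNA is not reported here), and the 3 nearest patterns of Igf1, Igf2 and each binding protein. Sequences and coordinates come from GRCm39 with the GENCODE annotation of that build, and 99.9% of the gene IDs had a symbol. Intervals and read recovery were tested on simulated data with Poisson counts. Such a test checks the calculation and not the spread between real libraries. Alternatives covered the total, scaling, depth, filter, fold, pseudocount, the measure of density and the binding proteins summed, and each library was left out in turn, a choice made after the data were seen. Python 3.11.15 with numpy 2.4.6, pandas 2.3.3, scipy 1.17.1 and matplotlib 3.10.9 was used.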

Additional observations from a re-analysis of the deposited data

How the results depend on the processing

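The number of members called at 2-fold, 3 with the deposited values, was 5 with Kri1 left out of the total (43.2% of all mRNAs called in the same setting), 5 at a 1.5-fold call (61.7%), 0 at a 4-fold call (23.2%), and 5 with the library labelled lung left out (43.6%), a choice made after the data were seen. With median-of-ratios scaling and with the 20 mRNAs of most reads left out, 4 members were called, of which 2 were shared with the deposited values, and Igfbp6 was not among them. Lung against heart gave 6 calls, and 2 at a 4-fold call (Igfbp2 and Igfbp3), where 44.3% of all mRNAs were called. The first binding protein of each library was the same in every alternative but that without Igfbp7. Taking reads in place of RPKM moved its share to 48.7% in labelled brain, 60.5% in labelled colon, 37.5% in labelled kidney and 41.6% in labelled lung. Without Igfbp7 the first share was 69.7% in labelled brain, 47.9% in labelled colon, 62.8% in labelled heart, 31.2% in labelled kidney, 39.9% in labelled lung and 65.1% in labelled small intestine. Of 108 member ratios recomputed under other totals, scalings and depths, 72 moved by less than their counting interval, 36 moved by more, and 0 of those called at 2-fold changed sign. Leaving Kri1 out raised every log2 density by 0.36 in labelled kidney and by 0.22 in labelled small intestine. No paired analysis was possible because each tissue has 1 library and the labels carry no replicate numbers, and for the same reason no replicate could be left out. Depth limits Igf2 and the lower end of Igfbp2, which rest on 5 and 4 reads.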
